A study of Rattus norvegicus with 12 samples.

Results

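The genes described here are the cytochrome P450s of families 1 to 4, the glutathione transferases and the UDP-glucuronosyltransferases of the rat cerebral cortex, the enzymes that oxidise foreign and lipid compounds and then couple them to glutathione or glucuronic acid. They were taken by symbol (Cyp1 to Cyp4, the Gsta, Gstm, Gstp, Gstt, Gsto, Gstk and Mgst classes, and Ugt), and a gene counted as measured where the scanner set its probe well above background in every pup of some group, 3 of 3 arrays. Of 141 such symbols in the gene table, 73 had a probe on the array and 34 were measured, out of 9284 measured genes with a name. The study compared 12 Wistar rat pups on 1-colour Agilent whole-genome arrays, 3 pups in each of 4 groups, with RNA from 1 pup's cortex per array. Rice saline pups had the left carotid artery tied and cut at 7 days of age, recovered for 1 to 2 h and spent 1 h in 8% oxygen at 33 °C, a hypoxic-ischaemic injury of the newborn brain. They then received 100 µl saline into the abdomen and a second injection after 30 min, and Rice MCI-186 pups had the same surgery and hypoxia but 9 mg/kg MCI-186 in saline at both injections. MCI-186 (edaravone) is a free radical scavenger. Control saline and Control MCI-186 pups had no injury and received 100 µl saline or 9 mg/kg MCI-186. Cortex came from the injured side and from the same side in controls, and every pup is labelled as 2 weeks old. The sources used here do not give the time from injury to tissue collection, the litters or the sexes.

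Phase I enzymes such as the P450s add an oxygen atom to their substrates, and phase II enzymes attach glutathione or a sugar acid, which makes the products soluble and easier to export. In liver both act mainly on drugs. In brain they also act on arachidonic acid and leukotrienes, on steroids, and on reactive aldehydes made when membrane lipids are oxidised. Several of their genes are known targets of the transcription factor Nrf2 (gene Nfe2l2), which binds antioxidant response elements, or of the aryl hydrocarbon receptor, which binds dioxin response elements.

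Values are log2 of the processed signal over the 75th percentile of its array, so 0 is the level of that percentile, and levels were not compared between probes. The 75th percentile lay at a signal of 920 to 1258, and 65.1% to 73.7% of spots were well above background. Arrays within a group correlated at 0.982 to 0.995. Each group's 3 arrays lay on a slide of their own, scanned together, so slide and group cannot be told apart in any comparison below. In whole cortex, fewer cells of a type and less RNA per cell cannot be told apart either.

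Of the 73 symbols with a probe, 39 were not measured, and 25 of these were not well above background on any array. The other 14 were well above background on a few arrays, at most 5 (Cyp4a1). All 7 Ugt2 symbols on the array were among those not measured, as were 19 of 25 Cyp2 symbols. Of the 34 members, 31 were well above background on all 12 arrays. Cyp4b1 was so on all 6 arrays of injured pups and on 0 of the 6 control arrays, and it was a member only through the injured groups. Cyp2s1 missed on 1 array of Rice MCI-186 pups, and Cyp4x1 on 1 array in each group but Control saline. Probe sequences were not used, so signal shared between close relatives (Gsta1 and Gsta3, the Gstm genes, the Cyp2d and Cyp4f genes, and the Ugt1a genes, which share exons) cannot be separated by gene.

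The first question was how injury changed these genes in pups given saline. Of 34 members, 21 were higher in Rice saline than in Control saline pups and 4 were lower, at an adjusted p under 0.05 in limma. Injury changed 49.5% of all 25903 features tested in this comparison, with 19.3% higher and 30.2% lower, against 61.8% of members higher and 11.8% lower. The median change was 0.75 over members and -0.15 over all features on the log2 scale. In pups given MCI-186, 22 members were higher after injury and 4 were lower, or 64.7% and 11.8% of members, against 20.2% higher and 31.8% lower over all features (52.0% called). The medians there were 0.84 over members and -0.14 over all features, and without Cyp4b1 the members' medians were 0.74 and 0.81 in the saline and MCI-186 arms. Since Cyp4b1 was measured only through the injured groups, it had to differ, and without it 20 of 33 members (60.6%) were higher with saline and 21 of 33 (63.6%) with MCI-186. Both arms called 21 members higher, Cyp4b1 among them, and 3 members lower (Cyp3a62, Cyp3a9 and Cyp4x1). The share of all features called the same way in both arms was not computed. The arms used different control and different injured pups, but limma used a shared estimate of the spread for both.

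**Figure D1:**
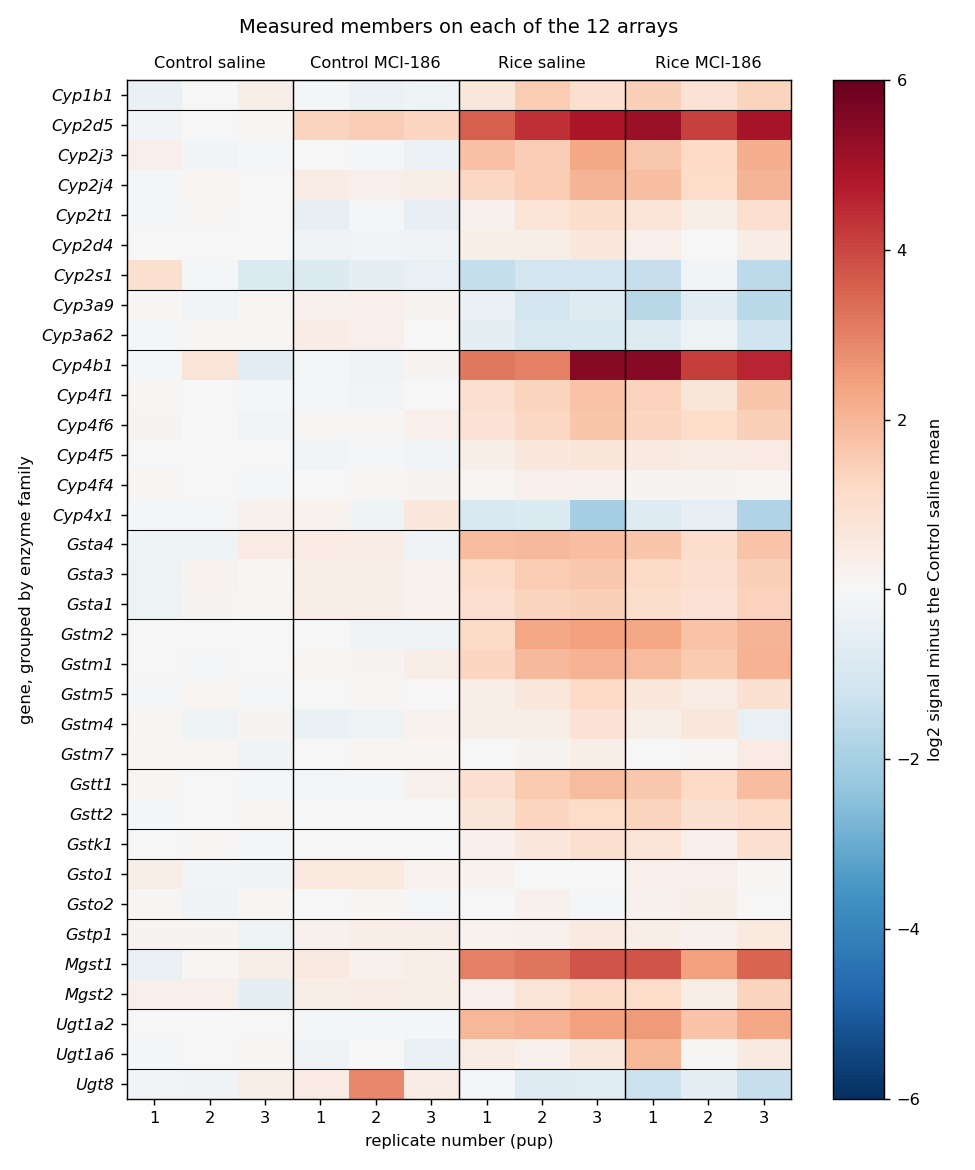
Each row is 1 measured member and each column 1 pup. Colour gives the log2 signal minus the mean of the 3 Control saline pups (red higher, blue lower), and lines separate enzyme families and the 4 groups of 3 pups. Most rows are red in both injured groups, with Cyp2d5, Cyp4b1 and Mgst1 the darkest, while Cyp3a9, Cyp3a62 and Cyp4x1 are blue there.

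Among the P450s, the single measured Cyp1 gene and 5 of 6 Cyp2 genes were higher after injury in both arms. Cyp1b1, which oxidises oestrogens and polycyclic hydrocarbons and is a known target of the aryl hydrocarbon receptor, read -4.93, -4.54 and -4.19 in Control saline, -4.61, -4.89 and -4.82 in Control MCI-186, -3.89, -3.05 and -3.57 in Rice saline, and -3.13, -3.70 and -3.22 in Rice MCI-186 pups. Every injured pup lay above every control. The change was 1.05 ± 0.24 (SE; limma adjusted p = 0.00553) with saline and 1.42 ± 0.24 (adjusted p = 0.00103) with MCI-186, and it was smaller with normexp background correction, at 0.45 and 0.54.

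Cyp2d5, a member of the drug-metabolising Cyp2d group, had the largest change with saline of any member with a fitted fold. It read -5.0, -4.79 and -4.71 in Control saline, -3.48, -3.36 and -3.57 in Control MCI-186, -1.24, -0.47 and 0.04 in Rice saline, and 0.35, -0.75 and 0.11 in Rice MCI-186 pups. The 3 levels did not overlap: lowest in Control saline, higher in Control MCI-186, and highest in the 6 injured pups. Injury raised it by 4.28 ± 0.32 (19.4-fold; limma adjusted p = 9.03e-06) with saline and by 3.38 ± 0.32 (10.4-fold; adjusted p = 3.83e-05) with MCI-186. With normexp background correction these were 2.85 and 2.69, and the change between the control groups was 0.57. Its neighbour on the chromosome, Cyp2d4, changed by only 0.46 ± 0.12 (limma adjusted p = 0.0097) and 0.44 ± 0.12 (adjusted p = 0.0103).

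Cyp2j3 and Cyp2j4 are neighbouring genes of the group that makes epoxides from arachidonic acid. Cyp2j3 read -1.31, -1.79 and -1.72 in Control saline, -1.60, -1.66 and -1.98 in Control MCI-186, 0.16, -0.11 and 0.72 in Rice saline, and 0.02, -0.42 and 0.56 in Rice MCI-186 pups. Cyp2j4 read -0.90, -0.69 and -0.80 in Control saline, -0.36, -0.50 and -0.39 in Control MCI-186, 0.44, 0.73 and 1.25 in Rice saline, and 1.02, 0.28 and 1.22 in Rice MCI-186 pups. For both genes the 6 injured pups lay above the 6 controls. Cyp2j3 rose by 1.86 ± 0.27 (limma adjusted p = 0.000463) and 1.80 ± 0.27 (adjusted p = 0.000482) in the saline and MCI-186 arms, and 1.60 and 1.95 by its other probe. Cyp2j4 rose by 1.60 ± 0.24 (limma adjusted p = 0.000625) and 1.26 ± 0.24 (adjusted p = 0.00191).

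Cyp2t1 was higher by 0.71 ± 0.22 (limma adjusted p = 0.0201) with saline and 1.06 ± 0.22 (adjusted p = 0.00248) with MCI-186. Its call in the saline arm was lost in 4 alternatives, with normexp background correction (0.41, adjusted p = 0.0602; 0.55 in the MCI-186 arm) and without Control saline replicate 1, Rice saline replicate 2 or Rice saline replicate 3. Cyp2s1, a P450 found mainly outside the liver, read -3.43, -4.54 and -5.26 in Control saline, -5.21, -4.97 and -4.84 in Control MCI-186, -5.86, -5.50 and -5.55 in Rice saline, and -5.81, -4.57 and -5.97 in Rice MCI-186 pups. Its Control saline pups spread over a wider range than any other group. It was lower by 1.22 in the saline arm (log2 change -1.22 ± 0.44; limma adjusted p = 0.0409), and the change was -0.45 (adjusted p = 0.418) in the MCI-186 arm. The saline call was lost in 11 of the 19 alternatives with 1 probe per gene that gave it a value. Without Control saline replicate 1 the saline change was -0.73 (adjusted p = 0.146), and with normexp background correction it was -0.56.

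Both measured Cyp3a genes, neighbours that belong to the steroid- and drug-oxidising group, were lower after injury in both arms. Cyp3a9 read -2.30, -2.53 and -2.33 in Control saline, -2.14, -2.10 and -2.24 in Control MCI-186, -2.79, -3.49 and -3.17 in Rice saline, and -4.07, -3.06 and -4.0 in Rice MCI-186 pups. Cyp3a62 read -3.66, -3.45 and -3.46 in Control saline, -3.07, -3.23 and -3.57 in Control MCI-186, -4.13, -4.49 and -4.46 in Rice saline, and -4.28, -3.81 and -4.71 in Rice MCI-186 pups. Injured and control pups did not overlap for either gene. The log2 change of Cyp3a9 was -0.76 ± 0.25 (limma adjusted p = 0.0283) with saline and -1.55 ± 0.25 (adjusted p = 0.000776) with MCI-186. Its saline call was lost without Control saline replicate 1 or 3 and without Rice saline replicate 2 or 3 (adjusted p = 0.065 to 0.103). For Cyp3a62 the change was -0.84 ± 0.21 (limma adjusted p = 0.00866) and -0.98 ± 0.21 (adjusted p = 0.00348), with -0.53 in the saline arm under normexp background correction.

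Of the 6 Cyp4 genes, which oxidise the far end of fatty acid chains, 4 were higher, 1 was lower and Cyp4f4 was not called in each arm. Cyp4b1 read -7.15, -6.26 and -7.64 in Control saline, -7.12, -7.22 and -6.84 in Control MCI-186, -3.86, -4.01 and -1.55 in Rice saline, and -1.56, -2.87 and -2.43 in Rice MCI-186 pups. The control values were not well above background, so its change is a lower bound, taken on each control array against its own signal or the dimmest signal the scanner still set well above background, whichever was higher. It was at least 6.39-fold higher in Rice saline and at least 9.42-fold higher in Rice MCI-186 pups. The limma call in both arms belongs to the fitted change and not to the bound. Since Cyp4b1 was measured only through the injured groups, it had to differ, and the call adds no support. Without Rice saline replicate 3, whose value stood apart, the bound in the saline arm was 3.68-fold. The bounds depend on the background correction. With normexp background correction the log2 change was 1.27 and 1.74 in the saline and MCI-186 arms, which is below both bounds, and with a floor of 0.02 it was 2.50 and 3.36, the former also below its bound.

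The Cyp4f genes of the rat are known for oxidising leukotriene B4 and arachidonic acid. Cyp4f1 read 0.36, 0.28 and 0.12 in Control saline, 0.17, 0.08 and 0.29 in Control MCI-186, 1.21, 1.59 and 1.98 in Rice saline, and 1.65, 0.98 and 1.93 in Rice MCI-186 pups. Cyp4f6 read 1.00, 0.85 and 0.67 in Control saline, 0.91, 0.93 and 1.15 in Control MCI-186, 1.71, 2.07 and 2.50 in Rice saline, and 2.14, 1.93 and 2.28 in Rice MCI-186 pups. Both neighbouring genes were above all controls in each injured pup. Cyp4f1 rose by 1.33 ± 0.24 (limma adjusted p = 0.00146) and 1.34 ± 0.24 (adjusted p = 0.00127), and Cyp4f6 by 1.26 ± 0.19 (adjusted p = 0.000535) and 1.12 ± 0.19 (adjusted p = 0.00085). The other neighbouring pair was divided, with Cyp4f5 higher by 0.56 ± 0.10 (limma adjusted p = 0.00157) and 0.66 ± 0.10 (adjusted p = 0.000605), and Cyp4f4 at 0.22 ± 0.09 (adjusted p = 0.0631) and 0.07 (adjusted p = 0.538).

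Cyp4x1, a P450 known from brain, was the Cyp4 gene that fell. It read -4.98, -4.99 and -4.59 in Control saline, -4.66, -5.12 and -4.21 in Control MCI-186, -5.79, -5.67 and -6.85 in Rice saline, and -5.62, -5.35 and -6.67 in Rice MCI-186 pups. Replicate 3 was the lowest pup of each injured group, and injured pups lay below controls in both arms. The log2 change was -1.25 ± 0.39 (limma adjusted p = 0.0226) and -1.22 ± 0.39 (adjusted p = 0.0237), or -0.41 and -0.54 with normexp background correction, and -0.79 in the saline arm with a floor of 0.02. The call was lost without Control saline replicate 3 or Rice saline replicate 3 (adjusted p = 0.0657 and 0.0887), and in the MCI-186 arm without Control MCI-186 replicate 1 or 3 or Rice MCI-186 replicate 3 (0.0559, 0.0881 and 0.0876).

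**Figure D2:**
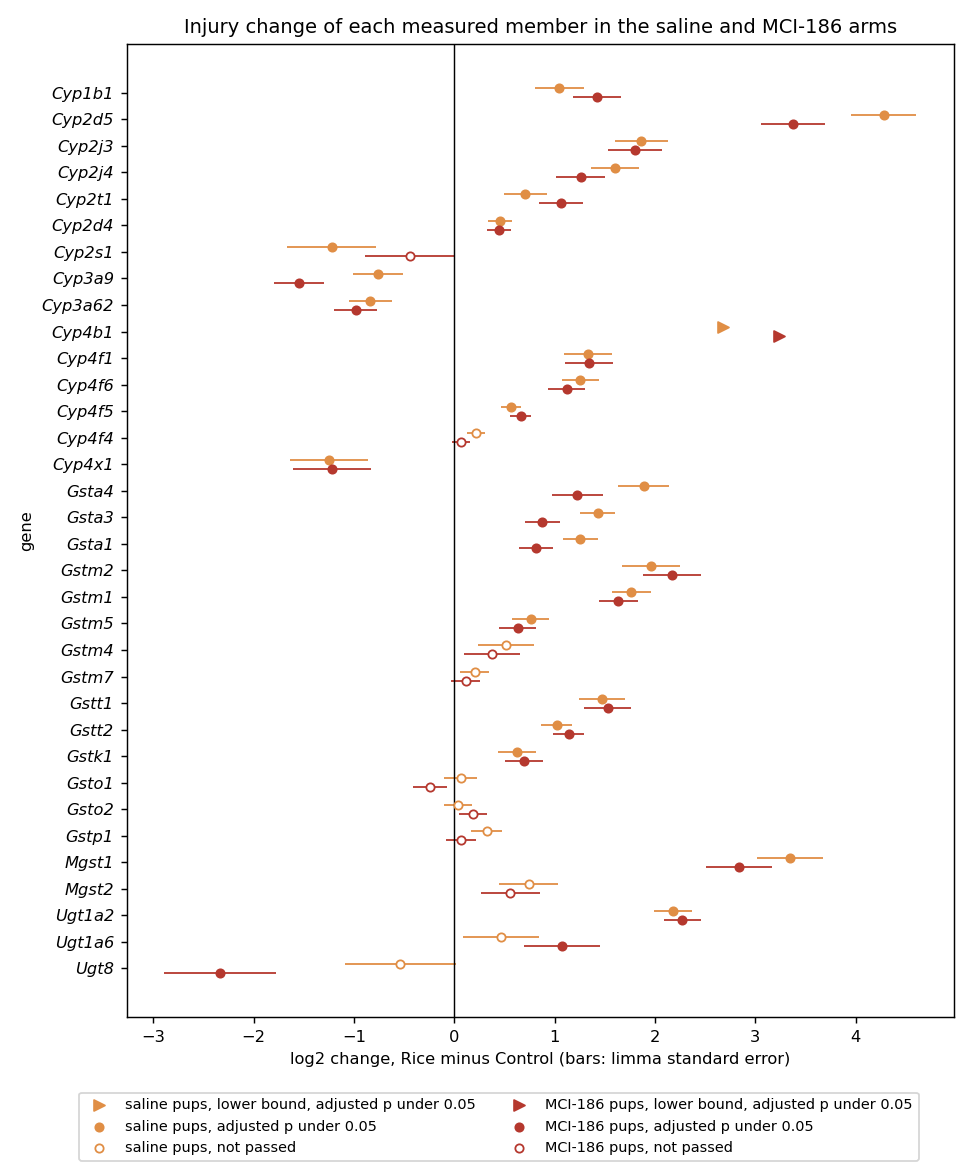
For each member the plot gives the log2 change of Rice against Control pups (x axis) in the saline arm (orange) and the MCI-186 arm (red), with bars for the limma standard error. Filled points passed an adjusted p of 0.05, open points did not, and triangles mark the lower bounds of Cyp4b1. The Gsta, Gstm1, Gstm2, Gstt, Mgst1 and Ugt1a2 points lie to the right of 0 in both arms, and the Cyp3a and Cyp4x1 points to the left.

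The glutathione transferases went mostly one way: 10 of 16 members were higher after injury in both arms, 6 were not called in either arm, and 0 were lower. Over all features, 19.3% were higher and 30.2% lower with saline, and 20.2% and 31.8% with MCI-186. The share higher in both arms was not computed. All 3 measured alpha-class genes rose. Gsta4, the alpha enzyme known for conjugating the lipid aldehyde 4-hydroxynonenal, read 0.78, 0.78 and 1.52 in Control saline, 1.52, 1.48 and 0.82 in Control MCI-186, 2.92, 2.98 and 2.85 in Rice saline, and 2.68, 2.10 and 2.73 in Rice MCI-186 pups. Controls lay at a lower and a higher level in both control groups, and all injured pups lay above both levels. The rise was 1.89 ± 0.25 (limma adjusted p = 0.000309) with saline and 1.23 ± 0.25 (adjusted p = 0.00262) with MCI-186.

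Gsta3 read 0.83, 1.34 and 1.19 in Control saline, 1.47, 1.49 and 1.32 in Control MCI-186, 2.25, 2.65 and 2.76 in Rice saline, and 2.27, 2.08 and 2.56 in Rice MCI-186 pups. Gsta1, its neighbour and near relative, read 3.36, 3.84 and 3.76 in Control saline, 4.04, 3.99 and 3.84 in Control MCI-186, 4.65, 5.0 and 5.07 in Rice saline, and 4.71, 4.53 and 5.06 in Rice MCI-186 pups. For both, injured and control pups did not overlap, and the pups ranked alike within the Rice groups. Gsta3 rose by 1.43 ± 0.18 (limma adjusted p = 0.00019) and 0.87 ± 0.18 (adjusted p = 0.00234), and Gsta1 by 1.26 ± 0.17 (adjusted p = 0.000359) and 0.81 ± 0.17 (adjusted p = 0.00307).

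The mu-class genes Gstm5, Gstm7, Gstm2, Gstm1 and Gstm4 lie next to each other on the chromosome, and 3 of the 5 were higher after injury in both arms. Gstm2 read -3.60, -3.60 and -3.65 in Control saline, -3.63, -3.83 and -3.81 in Control MCI-186, -2.48, -1.32 and -1.17 in Rice saline, and -1.31, -1.91 and -1.56 in Rice MCI-186 pups. Gstm1 read 1.02, 0.91 and 1.03 in Control saline, 1.11, 1.15 and 1.38 in Control MCI-186, 2.27, 2.92 and 3.05 in Rice saline, and 2.90, 2.57 and 3.07 in Rice MCI-186 pups. Gstm5 read 1.65, 1.83 and 1.66 in Control saline, 1.70, 1.79 and 1.74 in Control MCI-186, 2.12, 2.41 and 2.90 in Rice saline, and 2.33, 2.15 and 2.64 in Rice MCI-186 pups. The controls of these genes were tightly grouped and lay below all injured pups. Gstm2 rose by 1.96 ± 0.29 (limma adjusted p = 0.000526) and 2.17 ± 0.29 (adjusted p = 0.000263), or 1.38 and 1.51 with normexp background correction. Gstm1 rose by 1.76 ± 0.19 (limma adjusted p = 9.53e-05) and 1.63 ± 0.19 (adjusted p = 0.000137). Gstm5 rose by 0.76 ± 0.18 (limma adjusted p = 0.00659) and 0.63 ± 0.18 (adjusted p = 0.0154), and the second call was lost without Rice MCI-186 replicate 3 (adjusted p = 0.0589).

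Gstm4 read 0.77, 0.40 and 0.81 in Control saline, 0.26, 0.36 and 0.85 in Control MCI-186, 1.01, 1.02 and 1.51 in Rice saline, and 1.04, 1.35 and 0.21 in Rice MCI-186 pups. Its Rice MCI-186 replicate 3 lay below all 6 controls, and the changes of 0.52 ± 0.28 (limma adjusted p = 0.145) and 0.37 (adjusted p = 0.28) did not pass. Gstm7 stayed between 1.94 and 2.62 in all pups, with changes of 0.20 ± 0.14 (limma adjusted p = 0.263) and 0.11 (adjusted p = 0.529).

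Promoters of 30 of the 34 members were found in RefSeq (GRCr8), each 300 bases long, from 250 before to 50 after the start site. The core of the antioxidant response element was searched as TGACNNNGC and that of the dioxin response element as GCGTG, on both strands. The first was found in 7 of 30 members (23.3%), in 4 of the 19 with a promoter that were called higher in both arms (21.1%), and in 12.1% of 33469 rat promoters. The second was found in 12 of 30 members (40.0%), in 7 of those 19 (36.8%), and in 29.7% of rat promoters. A match is a run of letters in this window and not a shown binding site. The 4 sequences below are printed for the mu neighbours Gstm5, which rose, and Gstm7, which was not called, for Gsta3, and for Cyp1b1. Capitals mark the matches, read 5′ to 3′ along the gene's strand, so GCGTG on the opposite strand appears as CACGC.
Gstm5, chr2:198219519-198219818, plus strand: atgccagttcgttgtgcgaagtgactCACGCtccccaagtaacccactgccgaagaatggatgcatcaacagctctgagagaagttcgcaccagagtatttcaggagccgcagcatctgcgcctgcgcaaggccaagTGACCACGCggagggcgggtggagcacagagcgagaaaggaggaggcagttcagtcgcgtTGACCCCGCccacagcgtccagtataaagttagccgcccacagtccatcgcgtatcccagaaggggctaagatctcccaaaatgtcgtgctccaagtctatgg
Gstm7, chr2:198260270-198260569, minus strand: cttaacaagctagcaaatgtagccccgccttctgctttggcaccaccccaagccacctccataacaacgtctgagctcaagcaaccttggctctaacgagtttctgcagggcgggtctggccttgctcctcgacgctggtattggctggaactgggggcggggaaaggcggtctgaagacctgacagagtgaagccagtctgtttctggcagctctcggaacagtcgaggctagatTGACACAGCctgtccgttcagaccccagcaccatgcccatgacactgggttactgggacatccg
Gsta3, chr9:31154739-31155038, plus strand: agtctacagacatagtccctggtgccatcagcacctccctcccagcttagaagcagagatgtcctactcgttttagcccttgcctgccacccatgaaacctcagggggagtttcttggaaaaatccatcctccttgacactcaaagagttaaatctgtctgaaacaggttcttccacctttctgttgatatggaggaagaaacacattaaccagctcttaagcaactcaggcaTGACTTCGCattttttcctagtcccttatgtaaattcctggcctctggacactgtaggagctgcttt
Cyp1b1, chr6:21094315-21094614, plus strand: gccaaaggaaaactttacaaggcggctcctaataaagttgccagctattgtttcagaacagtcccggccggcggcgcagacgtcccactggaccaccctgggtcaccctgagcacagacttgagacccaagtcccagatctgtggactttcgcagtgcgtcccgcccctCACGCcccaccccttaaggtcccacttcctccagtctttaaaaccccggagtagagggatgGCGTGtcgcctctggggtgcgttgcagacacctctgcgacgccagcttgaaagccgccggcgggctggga
Gstm5 held 2 copies of TGACNNNGC, first base at -113 and -53 from the start site, and GCGTG at -224 and at -109, the last inside the first TGACNNNGC match. Gstm7 held TGACNNNGC at -14 and Gsta3 at -17, while Cyp1b1 held GCGTG at -81 and -20. Gstp1, which was not called after injury, held TGACNNNGC at -61. Each printed promoter held a match, but Cyp2d5, Mgst1, Ugt1a2, Gstm2, Gstm1 and Cyp2j3, with some of the largest rises, held neither motif. Gsta4, which also rose, held GCGTG at -210, -86 and -73. Cyp4x1, which fell, held GCGTG at -99, and Cyp2s1, lower with saline, held TGACNNNGC at -196.

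Both measured theta-class genes, again neighbours, were higher after injury. Gstt1 read -3.28, -3.38 and -3.47 in Control saline, -3.47, -3.50 and -3.12 in Control MCI-186, -2.44, -1.80 and -1.49 in Rice saline, and -1.78, -2.18 and -1.55 in Rice MCI-186 pups. Gstt2 read -1.0, -0.89 and -0.78 in Control saline, -0.91, -0.94 and -0.84 in Control MCI-186, -0.18, 0.38 and 0.19 in Rice saline, and 0.47, 0.01 and 0.25 in Rice MCI-186 pups. Neither gene's injured pups overlapped its controls. Gstt1 rose by 1.47 ± 0.23 (limma adjusted p = 0.000766) and 1.53 ± 0.23 (adjusted p = 0.000534; 0.99 in the MCI-186 arm with normexp background correction), and Gstt2 by 1.02 ± 0.15 (adjusted p = 0.000591) and 1.14 ± 0.15 (adjusted p = 0.000281).

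Gstk1, the kappa-class enzyme of mitochondria and peroxisomes, read 0.14, 0.21 and 0.03 in Control saline, 0.12, 0.14 and 0.12 in Control MCI-186, 0.42, 0.75 and 1.08 in Rice saline, and 0.96, 0.42 and 1.08 in Rice MCI-186 pups. Controls were nearly level, and injured pups were higher and more spread. It rose by 0.62 ± 0.19 (limma adjusted p = 0.0186) and 0.69 ± 0.19 (adjusted p = 0.0108), and the saline call was lost without Control saline replicate 3 (adjusted p = 0.0513) or Rice saline replicate 3 (adjusted p = 0.074).

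The omega and pi classes were not called in either arm. Gsto1, which reduces dehydroascorbate and mixed disulfides, read 3.08, 2.56 and 2.53 in Control saline, 3.30, 3.32 and 2.94 in Control MCI-186, 2.95, 2.69 and 2.71 in Rice saline, and 3.01, 3.02 and 2.80 in Rice MCI-186 pups. Gsto2 read -4.05, -4.35 and -4.01 in Control saline, -4.15, -4.0 and -4.23 in Control MCI-186, -4.18, -3.90 and -4.22 in Rice saline, and -3.89, -3.79 and -4.15 in Rice MCI-186 pups. Gstp1, the pi-class enzyme, read 4.55, 4.54 and 4.07 in Control saline, 4.67, 4.77 and 4.80 in Control MCI-186, 4.58, 4.62 and 4.92 in Rice saline, and 4.78, 4.66 and 5.0 in Rice MCI-186 pups. Injured and control pups overlapped in both arms for Gsto1 and Gsto2, and for Gstp1 in the MCI-186 arm. The injury change of Gsto1 was 0.06 ± 0.17 (limma adjusted p = 0.776) and -0.24 (adjusted p = 0.237), and that of Gsto2 was 0.04 (adjusted p = 0.845) and 0.19 (adjusted p = 0.275). That of Gstp1 was 0.32 ± 0.15 (limma adjusted p = 0.1) and 0.06 (adjusted p = 0.744), and with quantile normalization its saline change passed (0.50, adjusted p = 0.00994).

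Of the membrane-bound microsomal transferases, Mgst1, which conjugates glutathione and reduces lipid peroxides, had one of the largest changes. It read -4.27, -3.72 and -3.44 in Control saline, -3.26, -3.55 and -3.42 in Control MCI-186, -0.77, -0.59 and -0.03 in Rice saline, and -0.03, -1.34 and -0.34 in Rice MCI-186 pups. A wide gap separated injured from control pups in both arms. Mgst1 rose by 3.35 ± 0.33 (10.2-fold; limma adjusted p = 4.78e-05) and 2.84 ± 0.33 (7.16-fold; adjusted p = 0.000117), or 2.49 and 2.23 with normexp background correction. Mgst2, known for making leukotriene C4, read -0.95, -0.94 and -1.83 in Control saline, -0.88, -0.78 and -0.87 in Control MCI-186, -0.92, -0.46 and -0.11 in Rice saline, and -0.12, -0.82 and 0.08 in Rice MCI-186 pups. Control saline replicate 3 lay below its group, and the changes of 0.74 ± 0.30 (limma adjusted p = 0.0593) and 0.56 (adjusted p = 0.135) did not pass.

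**Figure D3:**
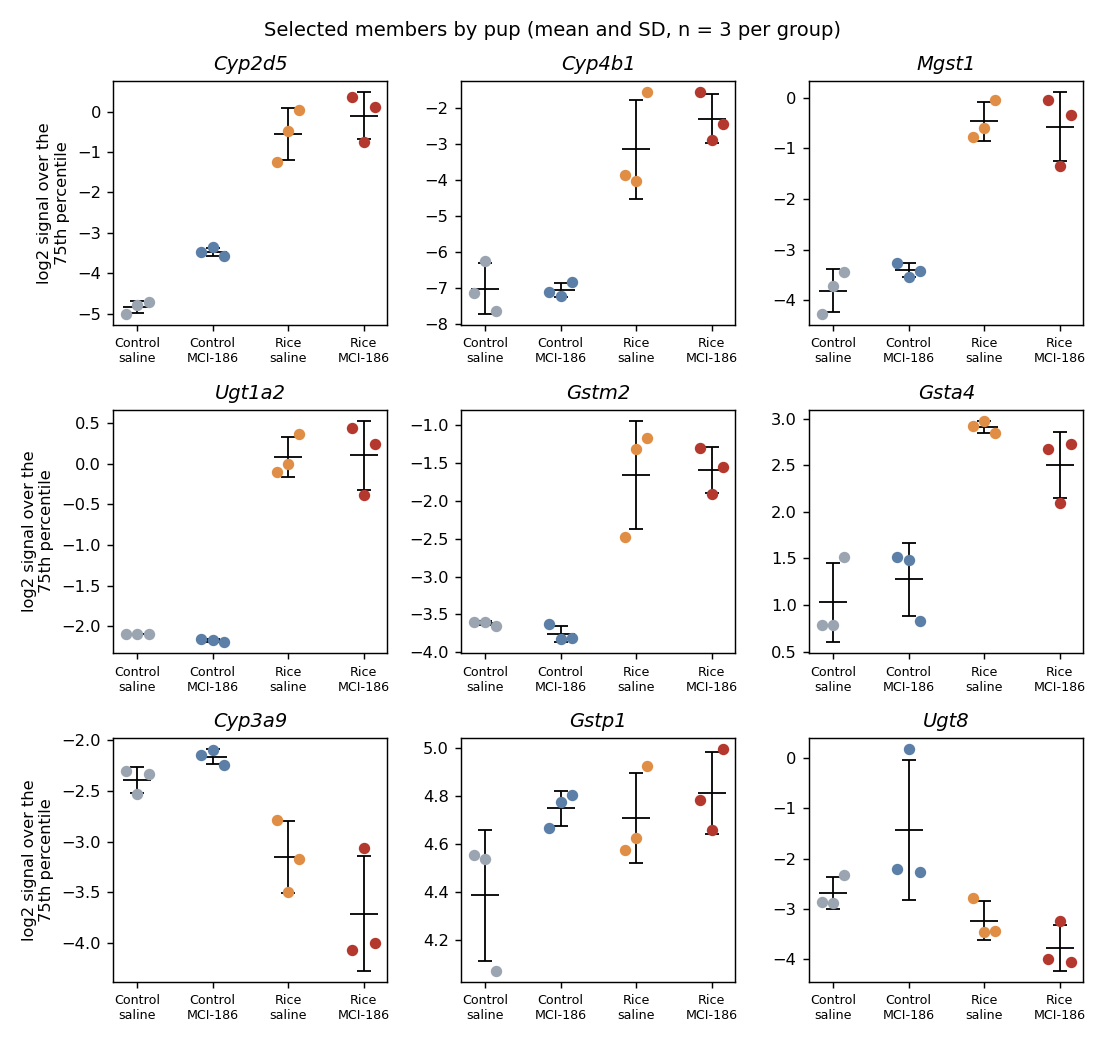
Points are single pups in the 4 groups, and bars are the group mean and SD (n = 3), on a log2 scale of signal over the array's 75th percentile that differs between panels. Injured pups stand clear of controls for Cyp2d5, Cyp4b1, Mgst1, Ugt1a2, Gstm2, Gsta4 and, below them, Cyp3a9, while Gstp1 overlaps in the MCI-186 arm and Ugt8 has 1 high Control MCI-186 pup at 0.18.

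Glucuronosyltransferases were represented by 3 members. Ugt1a2 read -2.09, -2.09 and -2.10 in Control saline, -2.15, -2.17 and -2.19 in Control MCI-186, -0.10, 0.00 and 0.36 in Rice saline, and 0.44, -0.38 and 0.24 in Rice MCI-186 pups. The 6 controls differed by little, and the injured pups were far above them. It rose by 2.18 ± 0.19 (limma adjusted p = 2.12e-05) and 2.27 ± 0.19 (adjusted p = 1.61e-05), with 1.95 and 1.93 by its other probe. Ugt1a6, which glucuronidates planar phenols and is transcribed from the same locus, read -4.33, -4.24 and -4.15 in Control saline, -4.45, -4.23 and -4.65 in Control MCI-186, -3.81, -3.96 and -3.55 in Rice saline, and -2.25, -4.16 and -3.71 in Rice MCI-186 pups. Rice MCI-186 replicate 1 stood well above the other injured pups. Its change was 0.46 ± 0.38 (limma adjusted p = 0.326) with saline and 1.08 ± 0.38 (adjusted p = 0.0345) with MCI-186. Without Rice MCI-186 replicate 1 the changes were 0.46 (limma adjusted p = 0.0379) and 0.52 (adjusted p = 0.0449). The MCI-186 call was lost in 6 of the 20 alternatives with 1 probe per gene, including those without each Control MCI-186 pup and normexp background correction (0.49).

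Ugt8 makes galactosylceramide, the main glycolipid of myelin, rather than glucuronides. It read -2.86, -2.88 and -2.32 in Control saline, -2.20, 0.18 and -2.26 in Control MCI-186, -2.78, -3.46 and -3.43 in Rice saline, and -4.0, -3.24 and -4.06 in Rice MCI-186 pups. Control MCI-186 replicate 2 stood above all others. The change was -0.54 ± 0.56 (limma adjusted p = 0.439) with saline and -2.34 ± 0.56 (adjusted p = 0.0056) with MCI-186, and the latter was -1.53 (adjusted p = 0.0039) without that pup. Of 8 measured oligodendrocyte and myelin genes, 1 was higher and 1 lower after injury with saline (median -0.55), and 1 was higher and 7 were lower with MCI-186 (median -1.80). Among all features 19.3% were higher and 30.2% lower with saline, and 20.2% and 31.8% with MCI-186. Their summed signal, in units of the 75th percentile, was 118 to 149 in Control saline, 163 to 170 in Control MCI-186, 75.1 to 125 in Rice saline and 47.8 to 83.8 in Rice MCI-186 pups. The part of these genes in the Ugt8 value was not tested.

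The second question was whether MCI-186 changed these genes. Between Rice MCI-186 and Rice saline pups limma called 0 of 34 members, and 0.0% of 25902 features. At an unadjusted p under 0.05 it found 1 member (Cyp3a9, log2 change -0.56, limma adjusted p = 1) and 659 features (2.54%). The median change was 0.03 over members. Between Control MCI-186 and Control saline pups it again called 0 members, with 0.12% of features called. At an unadjusted p under 0.05 there were 4 members (11.8%, against 8.56% of features). These were Cyp2d5 at 1.37 ± 0.32 (limma adjusted p = 0.194), Gsto1 at 0.46, Gstp1 at 0.36 and Ugt8 at 1.26, the last with the 1 high pup. Injury by MCI-186 interaction, the difference between both injury changes, was called for 0 members and for 0.0232% of features. The members with an unadjusted p under 0.05 in it were Gsta3 at -0.55 and Ugt8 at -1.80 (limma adjusted p = 1 for both), 5.88% of members against 4.19% of features, and Ugt8 was at -1.0 without Control MCI-186 replicate 2. The injury changes of all 3 alpha-class genes were numerically smaller with MCI-186 than with saline. The differences, 0.66 for Gsta4, 0.55 for Gsta3 and 0.44 for Gsta1, did not pass. In that order, MCI-186 against saline was at 0.25, 0.31 and 0.30 in controls and at -0.41, -0.25 and -0.14 in injured pups. Uncalled interaction values of similar or larger size were Cyp2d5 at -0.90 and Mgst1 at -0.51, and in the other direction Cyp2s1 at 0.78 and Ugt1a6 at 0.61.

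Pups of 1 injured group differed from each other across the members. Of the 21 members higher in both arms, 18 were lowest in Rice saline replicate 1 of the 3 Rice saline pups, and 18 were highest in replicate 3. All 21 were lowest in Rice MCI-186 replicate 2 of its group, with 13 highest in replicate 3 and 8 in replicate 1. Over all features, 37.1% were lowest in Rice saline replicate 1, 43.6% highest in Rice saline replicate 3 and 40.1% lowest in Rice MCI-186 replicate 2. Those shares also cover features that fell or were not called, while the 21 members were chosen as higher in these same pups. The shares over all features called higher were not computed, so the order cannot be called particular to these enzymes. The summed signal of 6 reactive astrocyte markers, in units of the 75th percentile, was 58.5, 79.3 and 104 in the Rice saline pups and 112, 54.4 and 101 in the Rice MCI-186 pups, against 8.0 to 9.36 in controls. That of 7 neuronal markers was 37.9, 27.7 and 22.0, then 22.1, 38.6 and 23.0, against 56.8 to 66.9 in controls. The pups with the lowest enzyme levels thus had the least reactive astrocyte signal and the most neuronal signal of their group. Microglia and macrophage markers summed to 234, 223 and 312, then 326, 181 and 327, so Rice saline replicate 1 was not lowest for these. The part of any of these cell types in the enzyme levels was not tested.

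**Figure D4:**
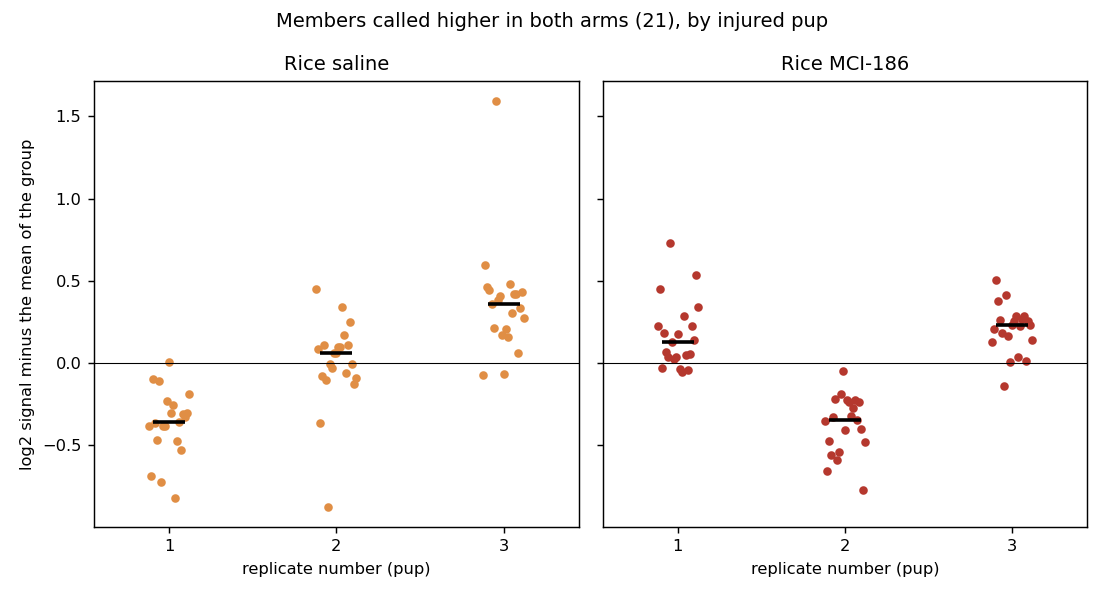
Each point is 1 of the 21 members called higher in both arms, as log2 signal minus the mean of its injured group (y axis), in each of the 3 pups of Rice saline (left) and Rice MCI-186 (right). Black bars are medians over members. Rice saline replicate 1 and Rice MCI-186 replicate 2 lie mostly below 0, and replicate 3 of each group mostly above it.

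Markers of cell types moved with injury beside these enzymes. Their counts stand beside 19.3% higher and 30.2% lower with saline, and 20.2% and 31.8% with MCI-186, over all features. All 6 reactive astrocyte markers were higher in both arms (median 4.24 and 4.38). Of 10 microglia and macrophage markers, 9 were higher in both arms (median 2.16 and 2.22), and their summed signal was 40.3 to 49.0 in controls, 223 to 312 in Rice saline and 181 to 327 in Rice MCI-186 pups. All 7 neuronal markers were lower (median -0.94 and -0.95). Of 7 mural, fibroblast and meningeal markers, 6 were higher and 1 was lower in both arms, with a summed signal of 41.8 to 55.2 in controls, 113 to 166 in Rice saline and 99.6 to 156 in Rice MCI-186 pups. Of 4 choroid plexus and ependymal markers, 3 were higher in both arms, from 0.53 to 0.97 in controls to 6.05 to 13.7 and 6.36 to 11.0 in the Rice groups, while the choroid plexus markers Ttr and Kl were not measured. Of 6 general astrocyte markers, 3 were higher and 2 lower with saline, and 4 and 2 with MCI-186. Of 6 endothelial markers, 2 were higher and 2 lower in each arm. Of 3 blood markers 0 were called, and of 3 neutrophil markers 3 were higher with saline and 1 with MCI-186. The neutrophil markers were dim, with a summed signal of 0.05 to 0.17 in controls. It was 0.26, 0.19 and 1.26 in Rice saline pups, where replicate 3 stood apart, and 0.26, 0.27 and 0.26 in Rice MCI-186 pups. Of these markers 0 were called between the Rice groups or in the interaction. Of 2 measured liver markers (median -1.13 and -0.38), Alb was lower in both arms (log2 change -2.04 and -1.20) and Apoa1 was not called in either. The liver markers Ttr, Fgb and Serpina1 were not measured. The part of cell make-up in the enzyme changes was not tested.

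The regulators and partners of these enzymes did not share one direction. Of 12 measured receptors and regulators, 3 were higher and 4 lower with saline, and 2 and 4 with MCI-186. These counts lay near the shares over all features, 19.3% higher and 30.2% lower with saline and 20.2% and 31.8% with MCI-186. Nfe2l2, which encodes Nrf2, was higher by 1.58 ± 0.18 (limma adjusted p = 0.00014) and 1.63 ± 0.18 (adjusted p = 0.000103), and its partner Mafk by 0.53 and 0.67. Keap1, which marks Nrf2 for breakdown, was lower, with a log2 change of -0.22 (limma adjusted p = 0.0426) and -0.30 (adjusted p = 0.0108). These changes were small beside a median over all features of -0.15 and -0.14. The part of Nrf2 or Keap1 in the enzyme changes was not tested. The aryl hydrocarbon receptor Ahr was not measured, and the related partner Arnt2 was lower, at -0.73 and -0.61. Of 8 redox partners of P450s, 1 was higher and 1 lower with saline, and 2 and 1 with MCI-186. Por, the reductase that supplies electrons to microsomal P450s, was at -0.21 ± 0.10 (limma adjusted p = 0.118) and -0.01 (adjusted p = 0.966). Hmox1, a haem-degrading Nrf2 target that draws electrons from the same reductase, rose by 2.61 ± 0.18 (limma adjusted p = 5.81e-06) and 2.33 ± 0.18 (adjusted p = 9.96e-06), and Hmox2 changed by -0.76 and -0.86.

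Of 37 genes that supply glutathione or glucuronate or carry out other phase I and II steps, 16 were higher and 5 lower with saline (median 0.35), and 21 and 6 with MCI-186 (median 0.55). Among all features 19.3% were higher and 30.2% lower with saline, and 20.2% and 31.8% with MCI-186. The quinone reductase Nqo1 rose by 1.15 ± 0.23 (limma adjusted p = 0.00281) and 1.12 ± 0.23 (adjusted p = 0.00283), and the cystine carrier Slc7a11 by 1.09 and 1.18. Ugdh, which makes UDP-glucuronate, rose by 0.54 and 0.55, and the flavin monooxygenase Fmo1 rose by 1.29 and 1.71. Fmo4 and Fmo5 were called higher in both arms too, but Fmo5 was well above background on 1 of 3 arrays in each control group and Fmo4 on 1 of 3 in Control MCI-186, so the sizes of their changes are not given. Gclc, the catalytic subunit of the rate-limiting enzyme of glutathione synthesis, was at 0.02 (limma adjusted p = 0.912) and 0.06 (adjusted p = 0.679), and the glutathione reductase Gsr at -0.38 (adjusted p = 0.0972) and -0.30 (adjusted p = 0.175). Sult4a1, a sulfotransferase of neurons, was lower at -1.12 and -0.97.

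The counts in this paragraph stand beside 19.3% higher and 30.2% lower with saline, and 20.2% and 31.8% with MCI-186, over all features. Among 8 glutathione transferases and relatives outside the symbol rule, 5 were higher and 1 lower in both arms (median 1.41 and 1.23). Those higher included Hpgds, which makes prostaglandin D2 and is found in microglia, at 3.4 ± 0.32 (limma adjusted p = 3.31e-05) and 3.13 ± 0.32 (adjusted p = 5.09e-05), the leukotriene C4 synthase Ltc4s at 1.49 and 1.39, and Alox5ap at 1.43 and 1.67. Of 11 other P450 genes, 5 were higher and 5 lower with saline, and 6 and 2 with MCI-186. The thromboxane synthase Tbxas1 was higher by 3.29 in both arms, the oxysterol hydroxylase Cyp7b1 by 2.34 and 2.27, and the retinoic acid hydroxylase Cyp26b1 by 2.54 and 1.42. Cyp51, of cholesterol synthesis, was lower at -1.14 and -1.31. Of 13 transporters that move conjugates and drugs, 5 were higher and 3 lower with saline, and 7 and 4 with MCI-186. Abcc3, which exports glucuronide and glutathione conjugates, rose by 3.01 ± 0.23 (limma adjusted p = 1.1e-05) and 3.31 ± 0.23 (adjusted p = 6.62e-06), and the blood-brain barrier carrier Slco1c1 changed by -1.12 and -1.09.

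**Figure D5:**
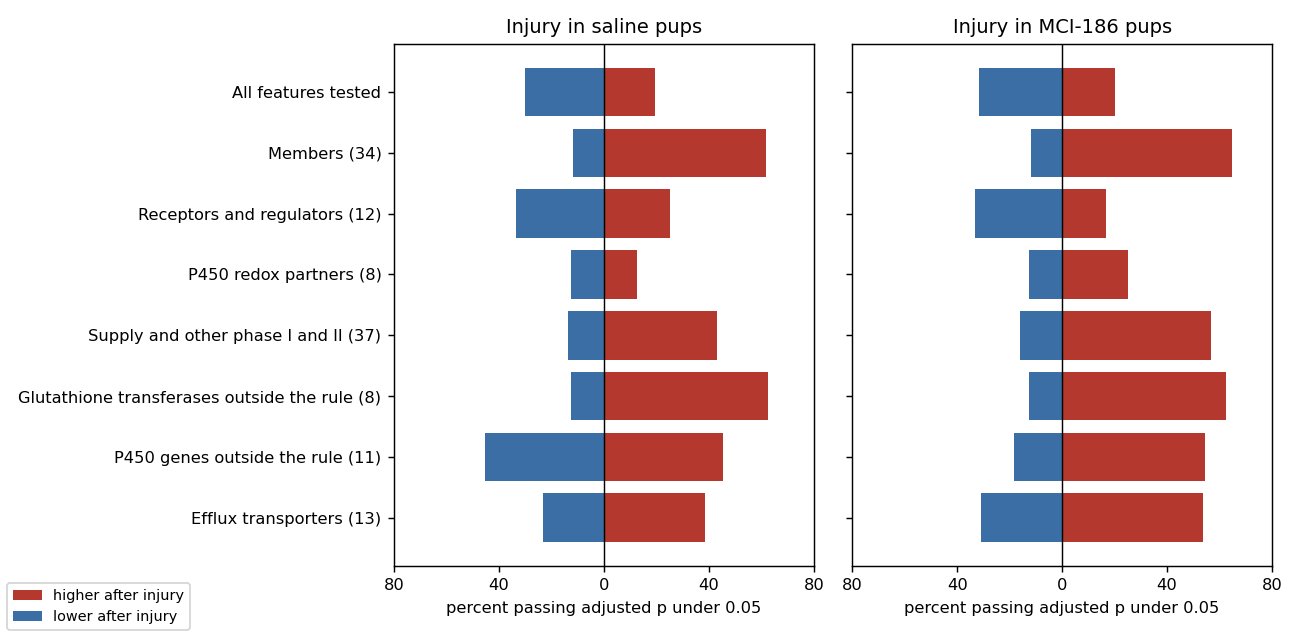
Bars give the percent of genes passing an adjusted p of 0.05, higher (red, right) and lower (blue, left) after injury, for all features, the 34 members and 6 lists of related genes, with the number measured in brackets. Members had 61.8% and 64.7% higher in the saline and MCI-186 arms, against 19.3% and 20.2% of all features.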

How the data were processed

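RNA of 12 cortices was labelled with Cy3 and hybridised to 1-colour arrays, per the labels' protocols. Per the file headers, the deposited scanner files hold spot intensity that Agilent Feature Extraction 9.5.3.1 background-subtracted and processed, and the array design names the build rn4. Deposited beside them was a table of log2 values whose scale, compared with the intensities, is the signal over the array's 75th percentile with each probe centred over arrays. It correlated at 0.9998 or more with the recomputed values, with column medians of -0.12 to 0.12, and the sources used here do not say how the authors made it.

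Each signal was taken relative to the 75th percentile of all 43379 non-control spots of the array, floored at 0.005 of it (75986 spot values) and log2-transformed, without control spots and 70 to 160 outlier spots per array, which left 193 missing probe values. At most 1 spot per array was saturated. Probes well above background on all 3 arrays of a group were kept (28531 of 41012). Genes were named through RefSeq accessions (GRCr8 table, 15175 probes, 12200 symbols), and 25837 probes stayed unnamed. The probe with the highest mean stood for a gene. The 4 members with a second kept probe were Cyp2j3, Gstp1, Gstt2 and Ugt1a2, and their probes gave the same calls. This left 9284 genes and 16624 unnamed probes. Group means of the 4 groups were estimated together from the 12 arrays with limma 3.58.1 in R 4.3.3 (8 residual and 2.5 prior degrees of freedom), with Benjamini-Hochberg adjustment over all features and a threshold of 0.05. The fit was tested on simulated data without slide effects, so that test does not bear on differences between slides. Replicates are separate pups, so p-values measure the spread between pups, and the number of arrays limits precision. Values on every array are given for up to 4 members per family, those with the largest injury change, and the remaining members are given by their changes or range. Members, lists and that rule were chosen with earlier results of these data known. Spot means were not in the files used here, so the normexp alternative used spot medians.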

Additional observations from a re-analysis of the deposited data

How the results depend on the processing

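Counts of members called were recomputed under 21 alternatives, 12 of which left out 1 pup. Without 1 pup, 20 to 26 members were called after injury with saline and 24 to 27 with MCI-186, and 0 in the 3 comparisons of MCI-186. The lowest count, 20, was without Rice saline replicate 3. The other settings (normexp background correction, quantile normalization, the deposited value table, no filter and a stricter filter on dim probes, a floor of 0.02, every probe, a replicate block, and only the groups compared) gave 22 to 27 and 24 to 26. With only the groups compared, MCI-186 in controls called 1 member, Cyp2d5 (limma adjusted p = 0.0247), against 0 with all groups. The SD of Cyp2d5 was 0.15 in Control saline and 0.10 in Control MCI-186, against 0.65 in Rice saline and 0.58 in Rice MCI-186 pups. The part of that spread in the call was not tested. With normexp background correction the Cyp2d5 change in controls was 0.57 (limma adjusted p = 0.757). Replicate numbers did not pair the pups: deviations of same-numbered pups correlated at -0.28 to 0.54 (median -0.035 over 18 pairs). With the replicate number as a block 24 and 26 members were called, and 0 in the comparisons of MCI-186. Of the 25 calls with saline 20 were kept in every alternative that gave them a value, and of the 26 with MCI-186 23 were. Of 1354 member values in the injury comparisons, 0 that were called in the main fit or the alternative changed sign. Some values called in neither did, such as Gsto1 with saline (0.06, lowest -0.04) and Gsto2 with saline (0.04, lowest -0.09). Gained with saline were Cyp4f4 (3 alternatives), Mgst2 (2), Ugt1a6 (2) and Gstp1 (1), and with MCI-186 Gstm4 and Mgst2 (1 each). With normexp background correction Ugt8 was at -1.68 with MCI-186. The slide as a block was not run, since each slide holds 1 group. Probes near background, above all Cyp4b1, Cyp2s1 and Cyp4x1, limit what the sizes of change show.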

Other observations

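The control pups of both groups fell at a lower and a higher Gsta4 level, with 3 pups at 0.78 to 0.82 and 3 at 1.48 to 1.52 on the log2 scale, and neither control group held a single level. Cyp2d5 did not overlap between the control groups, at -5.0 to -4.71 with saline and -3.57 to -3.36 with MCI-186, and 8 members in all were higher and 3 lower without overlap there, or 23.5% and 8.82% of members, against 12.8% and 11.2% of all features.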
